A study of Mus musculus with 18 samples.

Results

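RNA was measured in pericentral hepatocytes, the liver cells around the central vein, of mice fasted for 24 h and of fed mice killed at the same clock hour. By the sample labels the comparison holds 3 libraries of pericentral hepatocytes after a 24 h fast and 3 from fed mice, 6 of the 18 libraries in the series. The other 12 libraries, from pericentral hepatocytes after an 8 h fast and from periportal hepatocytes in the 3 feeding states, entered the fit to estimate the spread and are quoted only where named. All mice were wild-type C57BL/6J males of 12 weeks on normal chow, and the zones were separated by perfusing the liver with the detergent digitonin. All had been trained for 3 days to 16 h without food and 8 h of feeding. Fed mice had eaten for 4 h with 20% sucrose in their water when they were killed at clock hour 13. Fasted mice had the same meal, lost food and sucrose at clock hour 13 and were killed 24 h later. The groups therefore shared the training, the sugary meal, the zone and the hour of death, and differed in the last day of food. The series' title places it in the study of how gluconeogenic expression shifts between zones with feeding, fasting and starvation. The labels do not say whether the 3 libraries of a group came from separate mice, so p-values measure only the spread between these samples, which may be technical.

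Blood flows through the liver lobule from the portal side to the central vein, and hepatocytes along that path divide their work. Pericentral cells, kept in their state by Wnt signalling, make glutamine, carry most cytochromes P450 and are known for glycolysis and fat synthesis, whereas glucose production, urea synthesis and fat oxidation are classically periportal. After a sugary meal insulin and glucose drive glycolysis and fat synthesis through the transcription factors SREBP-1c and ChREBP. In fasting, glucagon, glucocorticoids and the insulin-restrained factor FOXO1 raise glucose production, and fatty acids from fat tissue activate the receptor PPARA and feed ketone synthesis.

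The 6 libraries held 19800000 to 26400000 estimated counts each, 15280 to 15676 genes with a count, and 6.93% to 8.71% of counts from mitochondrial genes. The first principal component of the 6 libraries (50.2% of the variance) separated the groups, and the second (15.7%) separated the 24 h libraries from each other. The zone label was checked on 26 pericentral markers. They summed to 23581 to 31052 CPM (counts scaled to a fixed total per library, with TMM factors, and not corrected for transcript length) in the fed pericentral libraries, against 2088 to 3903 CPM in the fed periportal ones. At 24 h they summed to 16687 to 29185 CPM in pericentral and 1767 to 3950 CPM in periportal libraries. The lowest pericentral sum was that of 24 h replicate 2, which stood apart in its zone markers, and fed replicate 3 stood apart in acute phase genes. The median of the pericentral markers was 37.5 CPM in 24 h replicate 2, against 154 and 147 CPM in the other 24 h pericentral libraries. It was 112 to 192 CPM in the fed pericentral and 8.21 to 11.2 CPM in the 24 h periportal libraries. Named calls that were lost without 1 of the 6 libraries are given with their values. Markers of sinusoidal endothelial cells summed to 3.56 to 5.87 CPM in the fed and 5.43 to 12.4 CPM in the 24 h libraries. Those of Kupffer cells and leukocytes summed to 1.69 to 2.76 and 2.77 to 7.83 CPM, and those of stellate cells and fibroblasts to 2.97 to 4.80 and 3.83 to 10.4 CPM. Cholangiocyte markers summed to 25.1 to 31.4 and 19.8 to 24.0 CPM, with Epcam at 0 in all 6 libraries, and erythroid markers to 45.6 to 55.1 and 38.1 to 51.8 CPM. Their part in the results was not tested. In edgeR 0 of 8 endothelial, 10 Kupffer, 5 stellate and 5 erythroid markers tested were called, with 0, 0, 0 and 1 at an unadjusted p under 0.05. All tested endothelial, Kupffer and stellate markers had log2 fold changes above 0, with medians of 1.04, 1.71 and 1.30, and 4 of the 5 erythroid markers did (median 3.22). DESeq2 and the fit with a replicate block each called 1 erythroid marker higher, and limma-voom called 0 of the 4 lists. With only the groups of the contrast, 1 Kupffer and 1 stellate marker were called higher, and without 24 h replicate 1, 1 erythroid marker was called lower. Sox9, a cholangiocyte marker, fell by 0.84 on the log2 scale (edgeR adjusted p 0.00559, SE 0.20).

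Of 12477 genes tested, 2726 (21.8%) were called between 24 h and fed at an adjusted p under 0.05 (edgeR quasi-likelihood F test, Benjamini-Hochberg). Of these, 1344 (10.8% of genes tested) were higher at 24 h and 1382 (11.1%) were lower. The median log2 fold change of all genes tested was 0.0090. Among the genes called, 370 rose and 473 fell by at least 2-fold, and 36 rose and 53 fell by at least 8-fold. The 3 and 3 libraries did not overlap in 2642 of the called genes, against 38.7% of all genes tested. The naming rule required this, so lack of overlap is no added support for the genes it chose. The largest rises by the naming rule were in Ppp1r3g, a subunit that directs a phosphatase to glycogen, the metallothioneins Mt2 and Mt1, Pck1 and the cell cycle inhibitor Cdkn1a. The largest falls were in Chrna4, a nicotinic receptor subunit, the lipid synthesis genes Fasn and Elovl6, Angptl8 and Thrsp. Fewer cells of a type and less RNA per cell cannot be told apart in these bulk libraries.

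**Figure D1:**
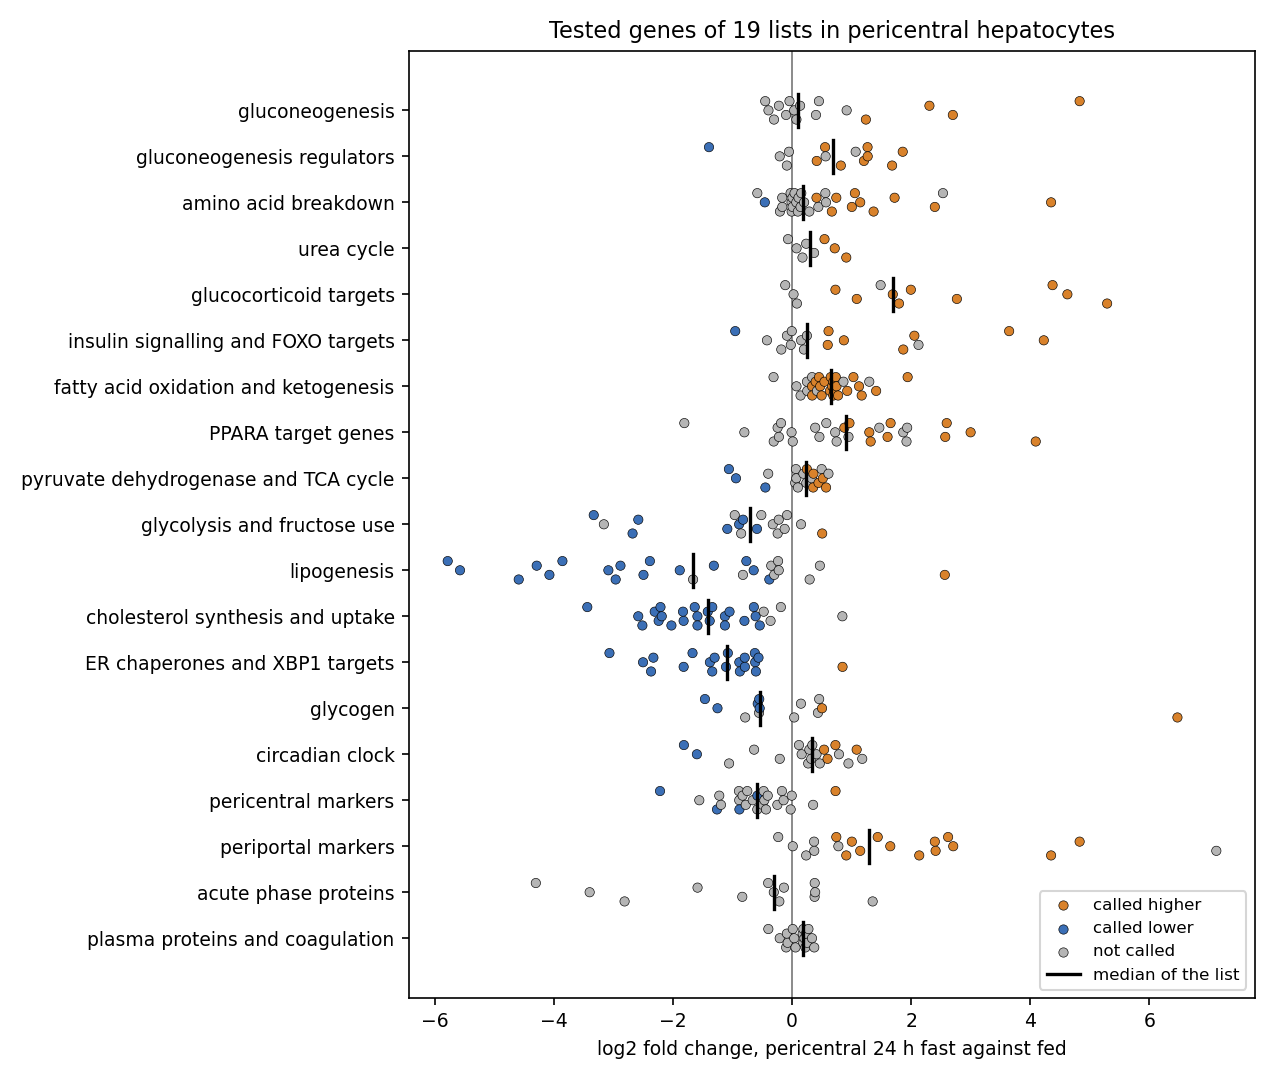
Each point is 1 tested gene of 19 lists, placed by its log2 fold change between pericentral hepatocytes after a 24 h fast and fed ones; orange and blue points were called higher and lower, grey points were not called, and black bars mark list medians. Lipogenesis, cholesterol and ER chaperone genes lie mostly to the left (medians -1.66, -1.42 and -1.09), and glucocorticoid targets and periportal markers to the right (medians 1.69 and 1.29).

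Of 16 tested genes of glucose production, 4 were higher at 24 h, 0 lower and 12 not called, a share close to the 21.8% called of all genes, with a list median of 0.10. Those that rose did so by large steps. Pck1 (phosphoenolpyruvate carboxykinase, which opens the path from oxaloacetate to glucose; chr2:173153048-173159273, GRCm38) stood at 75.7, 276 and 157 CPM in the fed libraries and 4791, 4844 and 4825 CPM at 24 h. The log2 fold change was 4.83 (edgeR adjusted p 3.3e-05, SE 0.54), and the lowest 24 h library lay far above the highest fed one. The 3 libraries at 24 h were nearly equal, replicate 2 included, whereas the fed libraries ranged over several-fold. Got1, which moves the carbon of aspartate and malate between compartments, stood at 84.3, 98.6 and 94.1 CPM in the fed libraries and 737, 446 and 616 CPM at 24 h, a log2 fold change of 2.70 (edgeR adjusted p 0.000462, SE 0.42). G6pc, the phosphatase that releases free glucose, rose by 2.31 on the log2 scale (edgeR adjusted p 0.000386, SE 0.36), and glycerol kinase Gk, which admits glycerol to the path, rose by 1.24 on the log2 scale (edgeR adjusted p 9.6e-05, SE 0.17). None of these 4 overlapped between groups. Pcx, the carboxylase that makes oxaloacetate from pyruvate, stood at 44.3, 25.0 and 45.0 CPM in the fed libraries and 70.5, 64.7 and 80.8 CPM at 24 h and was not called (log2 fold change 0.92, SE 0.34, edgeR adjusted p 0.0694). It was called with only the contrast's groups (edgeR adjusted p 0.0295) and in DESeq2 (adjusted p 0.0178). Periportal markers moved with these genes: their median ran from 76.9 to 119 CPM in fed and from 206 to 394 CPM in 24 h pericentral libraries (20 markers). In periportal libraries it ran from 581 to 742 CPM fed and from 770 to 1087 CPM at 24 h. Pck1 is itself on that marker list. The part of this shift in the glucose production genes was not tested.

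The 250 bases before the start of Pck1 are shown because they hold a match to the cyclic AMP response element (CRE), TNACGTCA, searched on both strands. The match, in capitals, lies 93 to 86 bases before the start. The sequence is from RefSeq (GRCm38.p6, chr2:173152823-173153072, plus strand).
Pck1: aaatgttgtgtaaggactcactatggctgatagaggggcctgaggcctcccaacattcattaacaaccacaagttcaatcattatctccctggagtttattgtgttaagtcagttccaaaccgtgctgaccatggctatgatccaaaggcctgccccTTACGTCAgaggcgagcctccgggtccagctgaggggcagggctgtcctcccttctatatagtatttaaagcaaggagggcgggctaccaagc
Such a match was present in 3 of the 15 gluconeogenesis promoters found in the RefSeq table (Pck1, Ldha and Mdh2), against 2.52% of all 32851 promoters and 4.76% of those of 9621 genes tested. Of these 3 genes Pck1 alone was called. Ldha, which makes pyruvate from lactate, had a log2 fold change of 0.45 (edgeR adjusted p 0.134, SE 0.21).

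Many regulators of the pathway were higher as well. Of 14 genes, 8 were higher, 1 was lower and 5 were not called (median 0.69), against 10.8% higher and 11.1% lower of all genes. The number higher was 6 or 7 when any 1 of the 6 libraries was left out. Ppargc1a, a coactivator of gluconeogenic and oxidative genes, stood at 6.15, 3.50 and 6.50 CPM in the fed libraries and 18.4, 12.6 and 21.0 CPM at 24 h, a log2 fold change of 1.68 (edgeR adjusted p 0.00016, SE 0.24). Foxo1 stood at 28.9, 29.6 and 29.8 CPM in the fed libraries and 78.0, 59.0 and 75.5 CPM at 24 h, a log2 fold change of 1.27 (edgeR adjusted p 8.57e-05, SE 0.17). The groups did not overlap in either. Klf15, a regulator of amino acid breakdown, rose by 1.27 on the log2 scale (edgeR adjusted p 0.000342, SE 0.20). The transcription factor Cebpb rose by 1.21 on the log2 scale (edgeR adjusted p 0.00156, SE 0.23), and Crtc2, the CREB coactivator released by glucagon signalling, by 0.82 on the log2 scale (edgeR adjusted p 0.000551, SE 0.14). The gene lower was Pde4b, a phosphodiesterase that breaks down cyclic AMP (log2 fold change -1.40, SE 0.39, edgeR adjusted p 0.0184). Pde4b was not called without fed replicate 1 (log2 fold change -1.02) or 24 h replicate 1 (-1.17).

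Among genes of insulin signalling and FOXO targets, 7 of 17 were higher and 1 was lower (median 0.25), against 10.8% and 11.1% of all genes. Irs2, the insulin receptor substrate that FOXO1 induces, stood at 2.94, 2.99 and 3.27 CPM in the fed libraries and 42.9, 23.0 and 49.5 CPM at 24 h. Its log2 fold change was 3.64 (edgeR adjusted p 0.000364, SE 0.53). Igfbp1, a secreted binder of insulin-like growth factors and a classic insulin-repressed gene, stood at 26.1, 12.8 and 6.66 CPM in the fed libraries and 348, 87.1 and 421 CPM at 24 h. It rose by 4.23 on the log2 scale (edgeR adjusted p 0.00195, SE 0.79). Igfbp1 moved most when a library was left out: the log2 fold change was 4.87 without fed replicate 1. In both genes the fed and 24 h libraries were fully apart and 24 h replicate 2 was the lowest of its group. The receptor gene Insr rose by 0.60 on the log2 scale (edgeR adjusted p 7.47e-05, SE 0.08), and Ccng2, a cyclin induced by FOXO factors, by 2.05 on the log2 scale (edgeR adjusted p 0.000252, SE 0.30). Pik3r1, the regulatory subunit of the insulin-responsive kinase, fell by 0.96 on the log2 scale (edgeR adjusted p 0.000328, SE 0.15).

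Of 13 targets of the glucocorticoid receptor, 9 rose and 0 fell (median 1.69), against 10.8% higher and 11.1% lower of all genes. Klf9, a direct target, stood at 37.0, 45.3 and 39.4 CPM in the fed libraries and 142, 131 and 148 CPM at 24 h, a log2 fold change of 1.79 (edgeR adjusted p 8.01e-07, SE 0.14). The metallothionein Mt2, which binds zinc and copper, stood at 2.11, 2.84 and 5.18 CPM in the fed libraries and 187, 74.6 and 134 CPM at 24 h, a log2 fold change of 5.29 (edgeR adjusted p 0.00136, SE 0.93). Its neighbour Mt1 stood at 4.70, 6.69 and 16.5 CPM in the fed libraries and 325, 124 and 238 CPM at 24 h (log2 fold change 4.62, SE 0.76, edgeR adjusted p 0.000857). Mt1 moved most when a library was left out: the log2 fold change was 5.33 without fed replicate 3. These near-identical genes can share reads, so their separate levels are uncertain. Cdkn1a stood at 0.899, 0.473 and 1.05 CPM in the fed libraries and 29.9, 2.17 and 18.9 CPM at 24 h, with 24 h replicate 2 close to the fed libraries. Its log2 fold change was 4.37 (edgeR adjusted p 0.00235, SE 0.84). Cdkn1a was not called with only the contrast's groups (log2 fold change 4.36) or in limma-voom (3.69), and the log2 fold change was 3.65 without 24 h replicate 1. Sgk1, a kinase induced by the receptor, rose by 1.99 on the log2 scale (edgeR adjusted p 0.00207, SE 0.39), and Errfi1, which restrains EGF receptor signalling, by 1.09 on the log2 scale (edgeR adjusted p 0.00192, SE 0.22).

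Of 32 genes of amino acid breakdown, 10 were higher at 24 h, 1 was lower and 21 were not called (median 0.18), against 10.8% higher and 11.1% lower of all genes. Slc7a2, which is on no breakdown list, is a carrier of arginine, lysine and ornithine; it was chosen by the rule on CPM gains and stood at 129, 186 and 164 CPM in the fed libraries and 1091, 1279.7 and 1160.2 CPM at 24 h. It rose by 2.88 on the log2 scale (edgeR adjusted p 6.8e-07, SE 0.22), with no overlap, which that rule required. Sds, serine dehydratase, which makes pyruvate from serine, stood at 3.98, 6.69 and 9.50 CPM in the fed libraries and 101, 215 and 94.8 CPM at 24 h, a log2 fold change of 4.35 (edgeR adjusted p 3.3e-05, SE 0.48). Hal, the first enzyme of histidine breakdown, stood at 46.8, 57.7 and 67.1 CPM in the fed libraries and 243, 466 and 196 CPM at 24 h (log2 fold change 2.40, SE 0.26, edgeR adjusted p 1.88e-05). Sds and Hal are also periportal markers, and both were highest in 24 h replicate 2. Glutaminase Gls2 rose by 1.14 on the log2 scale (edgeR adjusted p 0.000463, SE 0.19), and Aass, which starts lysine breakdown, by 1.05 on the log2 scale (edgeR adjusted p 0.0015, SE 0.20).

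Tat, which opens tyrosine breakdown and is a textbook glucocorticoid target, had one of the largest gains in CPM and one of the least stable calls. It stood at 1308, 1321 and 1581 CPM in the fed libraries and 5147, 1640.2 and 4080.4 CPM at 24 h, with 24 h replicate 2 near the fed level. The log2 fold change was 1.37 (edgeR adjusted p 0.0381, SE 0.44), and without 24 h replicate 2 it was 1.71, edgeR adjusted p 0.0103. Tat was not called without fed replicate 1 (log2 fold change 1.32), fed replicate 2 (1.32), fed replicate 3 (1.46), 24 h replicate 1 (1.02) or 24 h replicate 3 (1.27), and with no filter (1.36), with only the contrast's groups (1.35), with a replicate block (1.40) or in limma-voom (1.23). Ahcy, which splits S-adenosylhomocysteine in the methionine cycle, stood at 2938, 3339 and 3496 CPM in the fed libraries and 4514, 4655 and 5652 CPM at 24 h (log2 fold change 0.60, SE 0.17, edgeR adjusted p 0.0153). Ahcy was not called without fed replicate 1 (log2 fold change 0.53) or 24 h replicate 3 (0.49). Against 10.8% higher and 11.1% lower of all genes, 3 of 8 urea cycle genes rose and 0 fell (median 0.30). They were Arg1, which releases urea (log2 fold change 0.91, SE 0.18, edgeR adjusted p 0.00216), Slc25a13, a mitochondrial carrier of aspartate (log2 fold change 0.54, SE 0.12, edgeR adjusted p 0.00411), and Asl, which splits argininosuccinate (log2 fold change 0.72, SE 0.21, edgeR adjusted p 0.0196). Asl was not called without fed replicate 1 (log2 fold change 0.71), fed replicate 2 (0.60) or 24 h replicate 1 (0.62).

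**Figure D2:**
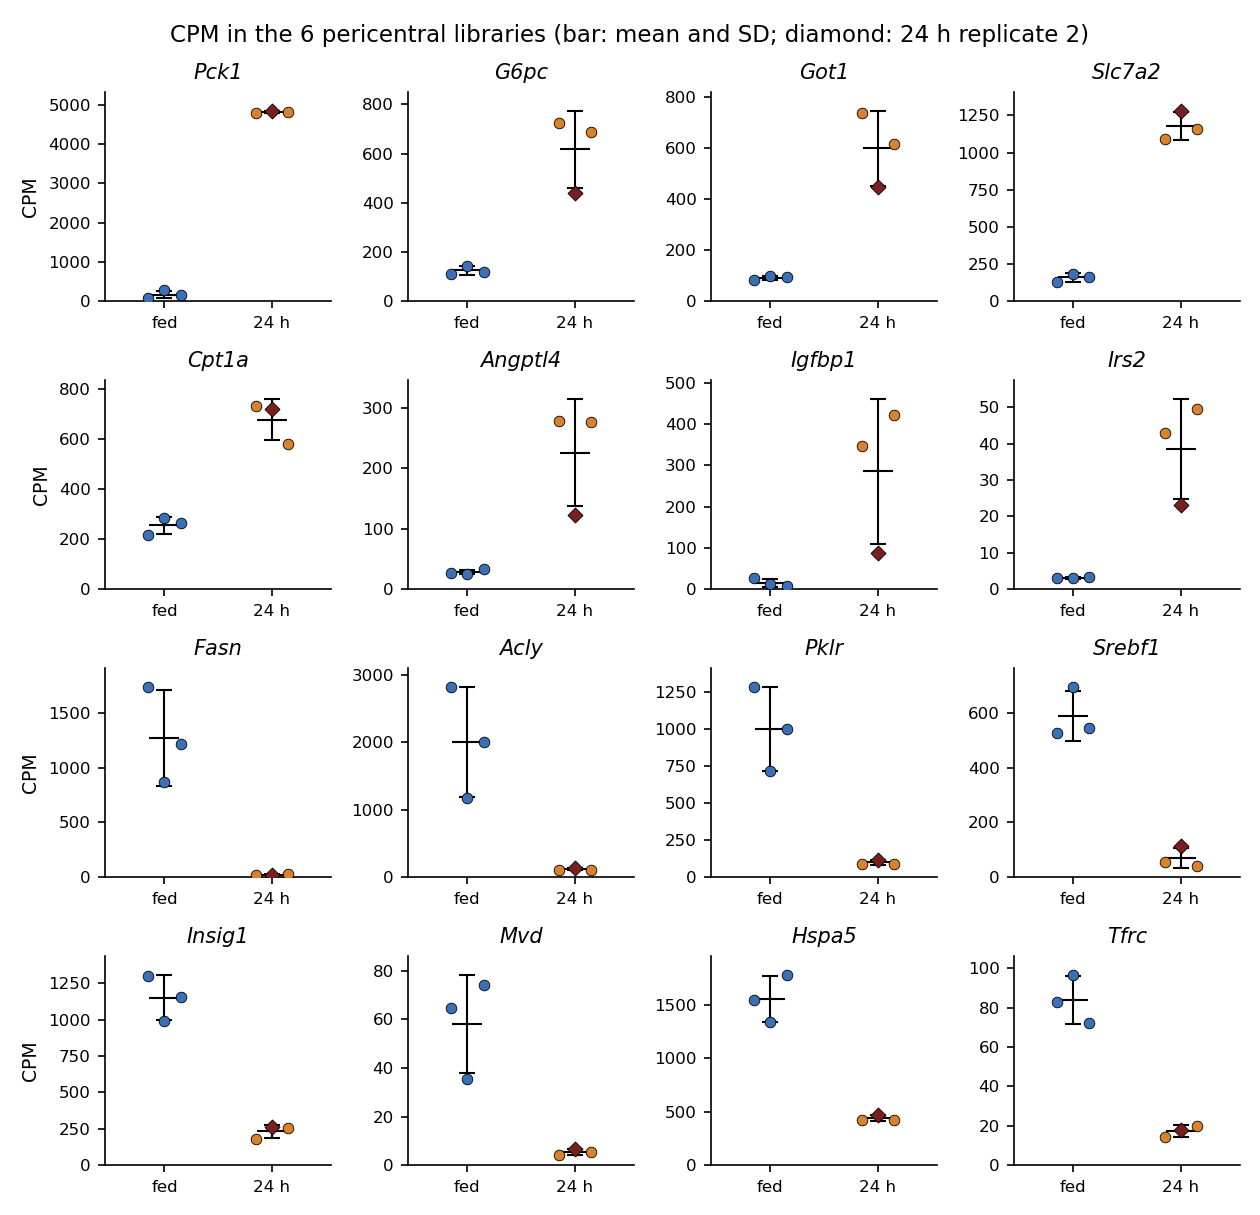
Each panel gives the CPM of 1 gene in the 3 fed (blue) and 3 24 h (orange) pericentral libraries, with 24 h replicate 2 as a diamond and a bar for the mean and SD. Pck1 lies at 4791 to 4844 CPM at 24 h and Fasn at 27.2 CPM or less. In none of the 16 genes did the groups overlap, but the naming rule that chose some of them required this. Of all genes tested, 38.7% did not overlap.

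Genes of fatty acid oxidation and ketone synthesis rose broadly but by small steps. Of 31 tested, 22 were higher, 0 lower and 9 not called (median 0.65), against 10.8% higher and 11.1% lower of all genes. Cpt1a, which commits fatty acids to mitochondrial oxidation, stood at 216, 285 and 264 CPM in the fed libraries and 731, 721 and 583 CPM at 24 h, a log2 fold change of 1.41 (edgeR adjusted p 1e-05, SE 0.15). Slc22a5, the carnitine importer, stood at 21.6, 25.2 and 22.4 CPM in the fed libraries and 95.4, 73.3 and 96.6 CPM at 24 h (log2 fold change 1.94, SE 0.22, edgeR adjusted p 2.67e-05). Both were fully separate between the groups. The medium chain dehydrogenase Acadm rose by 0.75 on the log2 scale (edgeR adjusted p 0.00335, SE 0.16), the trifunctional protein subunit Hadha by 0.70 on the log2 scale (edgeR adjusted p 0.00153, SE 0.14), and Pex11a, which acts in peroxisome division, by 1.12 on the log2 scale (edgeR adjusted p 0.00043, SE 0.18). The number of genes higher was 16 without 24 h replicate 2 and 14 without fed replicate 3.

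PPARA itself and 9 of its targets rose. In a list of 28 tested genes 10 were higher, 0 lower and 18 not called (median 0.91). The shares of all genes tested were 10.8% higher and 11.1% lower. Ppara stood at 109, 103 and 86.2 CPM in the fed libraries and 187, 214 and 180.4 CPM at 24 h, a log2 fold change of 0.96 (edgeR adjusted p 0.000245, SE 0.15). Angptl4, a secreted inhibitor of lipoprotein lipase, stood at 26.9, 25.3 and 32.6 CPM in the fed libraries and 278, 123 and 276 CPM at 24 h (log2 fold change 3.00, SE 0.28, edgeR adjusted p 6.18e-06). Acot1, a cytosolic acyl-CoA thioesterase, stood at 11.2, 12.8 and 6.54 CPM in the fed libraries and 183, 147 and 193 CPM at 24 h, a log2 fold change of 4.09 (edgeR adjusted p 0.00154, SE 0.73). The groups were apart in all 3 genes. Acot1 to Acot4 are close copies whose reads can be shared, and all 4 were called. Pnpla2, the lipase that opens triglyceride breakdown, rose by 1.65 on the log2 scale (edgeR adjusted p 1.54e-06, SE 0.14), and the lipid droplet protein Plin5 by 1.30 on the log2 scale (edgeR adjusted p 0.00517, SE 0.29). The omega-hydroxylase Cyp4a14, of another family of close copies, stood at 874, 1310.4 and 964 CPM in the fed libraries and 3237, 4025 and 4755 CPM at 24 h, fully apart, yet did not pass the test (log2 fold change 1.93, SE 0.67, edgeR adjusted p 0.0555). It was called at a minimum of 1 CPM (edgeR adjusted p 0.0499), with only the contrast's groups (0.000414), with a replicate block (0.0377) and in DESeq2 (0.0198), and not when any 1 of the 6 libraries was left out. Pdk4, the kinase that shuts pyruvate dehydrogenase, stood at 9.23, 10.8 and 6.74 CPM in the fed libraries and 28.9, 10.3 and 58.9 CPM at 24 h, with 24 h replicate 2 inside the fed range. It was not called with all libraries (log2 fold change 1.87, SE 0.67, edgeR adjusted p 0.0645) and was called without 24 h replicate 2 (2.29, edgeR adjusted p 0.0268). A match to the PPAR element core CAAAGGTCA, on either strand, was present in 1 of the 21 promoters found for this list (Acot4), against 0.426% of all promoters.

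In the path from pyruvate into the TCA cycle, 6 of 19 genes were higher and 3 lower (median 0.24), against 10.8% and 11.1% of all genes. Pdhb, a subunit of pyruvate dehydrogenase, stood at 239, 232 and 213 CPM in the fed libraries and 115, 112 and 100.2 CPM at 24 h and fell by 1.06 on the log2 scale (edgeR adjusted p 0.000202, SE 0.16). Citrate synthase Cs fell by 0.94 on the log2 scale (edgeR adjusted p 0.000554, SE 0.16). Ogdh, of the 2-oxoglutarate dehydrogenase step, rose by 0.57 on the log2 scale (edgeR adjusted p 0.000381, SE 0.092), and the succinyl-CoA ligase subunit Suclg1 by 0.44 on the log2 scale (edgeR adjusted p 0.00396, SE 0.10). The number higher was 3 without fed replicate 1, without fed replicate 2 or without fed replicate 3.

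Of 18 genes of glycolysis and fructose use, 7 were lower, 1 was higher and 10 were not called (median -0.71). Over all genes tested, 11.1% were lower and 10.8% higher. Pklr, liver pyruvate kinase, stood at 1279.9, 715 and 999 CPM in the fed libraries and 90.6, 119 and 87.7 CPM at 24 h (log2 fold change -3.33, SE 0.35, edgeR adjusted p 1.6e-05). Tkfc, which phosphorylates the glyceraldehyde made from fructose, stood at 981, 687 and 828 CPM in the fed libraries and 118, 144 and 127 CPM at 24 h, a log2 fold change of -2.68 (edgeR adjusted p 1.12e-06, SE 0.22). Neither gene overlapped between the groups. The gene higher, Pfkfb2, named after its values were seen, makes the activator of phosphofructokinase and stood at 11.1, 10.9 and 8.88 CPM in the fed libraries and 16.1, 12.4 and 15.4 CPM at 24 h (log2 fold change 0.50, SE 0.14, edgeR adjusted p 0.0173). Pfkfb2 was not called without fed replicate 3 (log2 fold change 0.41), 24 h replicate 1 (0.42) or 24 h replicate 3 (0.46), and with only the contrast's groups (0.49).

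Fat synthesis genes had the lowest median of the lists described here. Of 25 genes, 16 were lower, 1 was higher and 8 were not called (median -1.66), against 11.1% lower and 10.8% higher of all genes. Srebf1, which encodes SREBP-1, stood at 528, 695 and 547 CPM in the fed libraries and 54.2, 112 and 41.9 CPM at 24 h, a log2 fold change of -3.09 (edgeR adjusted p 4.89e-05, SE 0.37). Mlxipl, which encodes ChREBP, fell by 1.31 on the log2 scale (edgeR adjusted p 0.00176, SE 0.25). Acly, which makes cytosolic acetyl-CoA from citrate, stood at 2816, 1179 and 2007 CPM in the fed libraries and 112, 139 and 104 CPM at 24 h (log2 fold change -4.08, SE 0.59, edgeR adjusted p 0.000297). Fasn, fatty acid synthase, stood at 1734, 864 and 1211 CPM in the fed libraries and 18.6, 23.2 and 27.2 CPM at 24 h, a log2 fold change of -5.79 (edgeR adjusted p 2.95e-06, SE 0.47). Elovl6, which lengthens its product, stood at 2195, 1004 and 1024 CPM in the fed libraries and 30.3, 29.0 and 29.1 CPM at 24 h (log2 fold change -5.58, SE 0.59, edgeR adjusted p 2.81e-05). In every one of these genes the highest 24 h library was below the lowest fed one. Acaca, acetyl-CoA carboxylase, fell by 2.96 on the log2 scale (edgeR adjusted p 3.14e-05, SE 0.33). Thrsp and Mid1ip1 encode a related pair of proteins that promote fat synthesis. Thrsp fell by 4.59 on the log2 scale (edgeR adjusted p 0.000426, SE 0.69), and Mid1ip1 fell by 3.86 on the log2 scale (edgeR adjusted p 8.57e-07, SE 0.28). The malic enzyme Me1, a source of NADPH, fell by 2.50 on the log2 scale (edgeR adjusted p 0.00016, SE 0.35). The gene higher was Gpam, an acyltransferase that starts glyceride synthesis, at 2.63, 1.22 and 0.350 CPM in the fed libraries and 10.6, 5.77 and 8.85 CPM at 24 h (log2 fold change 2.56, SE 0.55, edgeR adjusted p 0.00388). Gpam moved most when a library was left out: the log2 fold change was 3.41 without fed replicate 1. The naming rule also chose falling genes outside the lists. Aacs, which activates ketone bodies for lipid synthesis, fell by 3.61 on the log2 scale (edgeR adjusted p 2.2e-05, SE 0.38), and Hcn3, a cation channel gene, fell by 4.51 on the log2 scale (edgeR adjusted p 0.000118, SE 0.57). Chrna4 stood at 29.3, 6.14 and 31.9 CPM in the fed libraries and 0.156, 0.110 and 0.643 CPM at 24 h (log2 fold change -6.31, SE 1.05, edgeR adjusted p 0.000902). Chrna4 was not called in limma-voom (log2 fold change -6.29), and the log2 fold change was -7.36 without 24 h replicate 3.

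Cholesterol synthesis fell almost throughout. Of 27 tested genes, 23 were lower, 0 higher and 4 not called (median -1.42), against 11.1% lower and 10.8% higher of all genes. Without 24 h replicate 2 the counts were 22 lower and 1 higher. Hmgcs1, the cytosolic synthase of an early step, stood at 296, 207 and 561 CPM in the fed libraries and 96.1, 114 and 132 CPM at 24 h (log2 fold change -1.64, SE 0.29, edgeR adjusted p 0.00121). Mvd, which makes isopentenyl diphosphate, stood at 64.7, 35.6 and 74.1 CPM in the fed libraries and 4.06, 6.58 and 5.39 CPM at 24 h, a log2 fold change of -3.44 (edgeR adjusted p 8.28e-07, SE 0.26). Groups did not overlap in these genes, and fed replicate 3 was the highest library for Hmgcs1 and Mvd. Insig1, which holds SREBPs in the endoplasmic reticulum, stood at 1304, 994 and 1159 CPM in the fed libraries and 179, 265 and 254 CPM at 24 h and fell by 2.31 on the log2 scale (edgeR adjusted p 3.29e-05, SE 0.27). Insig2 was not called with all libraries (log2 fold change 0.84, SE 0.30, edgeR adjusted p 0.0602) and was higher without 24 h replicate 2 (1.09, edgeR adjusted p 0.02).

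The 250 bases before the starts of Hmgcs1 and Mvd are shown for the motifs their list shares or lacks. In Hmgcs1 (chr13:119690101-119690350, plus strand) capitals mark the sterol regulatory element match TCACNCCAC, 137 to 129 bases before the start. In Mvd (chr8:122443423-122443672, minus strand) capitals mark the matches to CCAAT, the motif of the factor NF-Y, 60 to 56 and 27 to 23 bases before the start; the first of them is on the opposite strand. Both are from RefSeq, GRCm38.p6, and are printed in the direction of transcription.
Hmgcs1: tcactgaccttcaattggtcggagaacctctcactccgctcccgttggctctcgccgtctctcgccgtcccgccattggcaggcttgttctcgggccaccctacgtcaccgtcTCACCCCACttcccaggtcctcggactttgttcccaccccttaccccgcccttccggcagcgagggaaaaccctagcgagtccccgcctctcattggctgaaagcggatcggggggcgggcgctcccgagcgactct
Mvd: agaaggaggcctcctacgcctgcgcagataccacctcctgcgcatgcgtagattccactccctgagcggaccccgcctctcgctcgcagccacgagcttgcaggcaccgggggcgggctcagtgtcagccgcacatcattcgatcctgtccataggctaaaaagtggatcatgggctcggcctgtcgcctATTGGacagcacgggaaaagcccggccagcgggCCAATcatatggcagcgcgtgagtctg
The sterol element was found in 1 of 19 cholesterol promoters (Hmgcs1) and 1 of 22 lipogenesis promoters (Mlxipl), against 1.05% of all promoters. Other lists also held single matches, 1 of 21 PPARA target promoters (Acsl1) and 1 of 18 ER chaperone promoters (Hsp90b1), and gluconeogenesis 0 of 15. CCAAT was found in 17 of 19 cholesterol promoters (89.5%) and 13 of 22 lipogenesis promoters (59.1%), against 33.8% of all promoters and 41% of those of genes tested. The E-box CACGTG, a core that ChREBP and clock factors can bind, was found in 5 of 19 and 4 of 22. The share was 6.02% of all promoters and 9.64% of those of genes tested. Other lists held the E-box in 4 of 21 (PPARA targets), 3 of 15 (gluconeogenesis) and 2 of 18 promoters (ER chaperones). Every motif was searched on both strands, and a match is a description of the letters only.

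Chaperones of the endoplasmic reticulum and targets of XBP1 fell as a block. Of 20 genes, 19 were lower, 1 was higher and 0 were not called (median -1.09), against 11.1% lower and 10.8% higher of all genes. Without 24 h replicate 2, 18 were lower and 1 higher. Hspa5, the main chaperone BiP, stood at 1546, 1346 and 1782 CPM in the fed libraries and 427, 470.0 and 425 CPM at 24 h, a log2 fold change of -1.82 (edgeR adjusted p 8.92e-06, SE 0.19). Sdf2l1, a partner of BiP, stood at 44.3, 43.8 and 90.9 CPM in the fed libraries and 10.5, 6.29 and 4.40 CPM at 24 h (log2 fold change -3.07, SE 0.41, edgeR adjusted p 0.000153). The secreted chaperone-like factor Manf stood at 229.8, 215 and 316 CPM in the fed libraries and 45.2, 60.0 and 42.0 CPM at 24 h, a log2 fold change of -2.37 (edgeR adjusted p 2.2e-05, SE 0.26). Fed and 24 h libraries did not overlap in these. Xbp1 fell by 0.88 on the log2 scale (edgeR adjusted p 0.00254, SE 0.18), the co-chaperone Hyou1 fell by 2.33 on the log2 scale (edgeR adjusted p 1.31e-05, SE 0.24), and the disulfide isomerase Pdia4 fell by 1.67 on the log2 scale (edgeR adjusted p 0.00011, SE 0.23). The gene higher was Herpud1, of the degradation machinery, at 229.6, 253 and 344 CPM in the fed libraries and 529, 397 and 561 CPM at 24 h (log2 fold change 0.85, SE 0.18, edgeR adjusted p 0.00293).

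The promoter of Hspa5 is shown because CCAAT recurs in it. Capitals mark matches 214 to 210 (opposite strand), 186 to 182, 98 to 94 and 65 to 61 bases before the start (RefSeq, GRCm38.p6, chr2:34771840-34772089, plus strand).
Hspa5: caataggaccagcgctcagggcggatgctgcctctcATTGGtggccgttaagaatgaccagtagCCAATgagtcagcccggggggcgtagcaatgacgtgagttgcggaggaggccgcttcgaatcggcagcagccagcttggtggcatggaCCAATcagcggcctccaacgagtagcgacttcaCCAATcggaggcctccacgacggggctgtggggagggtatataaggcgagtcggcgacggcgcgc
CCAAT was found in 16 of 18 promoters of this list (88.9%), a search added after the values were seen. The share was 33.8% of all promoters and 41% of those of genes tested. In lists without genes called lower it was 57.1% (PPARA targets) and 40% (gluconeogenesis).

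Of 13 glycogen genes, 5 were lower, 2 higher and 6 not called (median -0.55), against 11.1% lower and 10.8% higher of all genes. Synthesis held 2 lower and 1 higher of 7, and breakdown 3 lower and 1 higher of 6. Pygl, the liver glycogen phosphorylase, stood at 726, 523 and 517 CPM in the fed libraries and 232, 265 and 245 CPM at 24 h, a log2 fold change of -1.25 (edgeR adjusted p 0.000139, SE 0.18). Ppp1r3b, which targets a phosphatase to glycogen, stood at 84.9, 133 and 112 CPM in the fed libraries and 33.1, 54.7 and 31.4 CPM at 24 h (log2 fold change -1.46, SE 0.36, edgeR adjusted p 0.00932). Its relative Ppp1r3g stood at 0, 0.473 and 0 CPM in the fed libraries and 7.81, 11.5 and 22.5 CPM at 24 h and had the largest rise under the naming rule, 6.47 (edgeR adjusted p 0.00147, SE 1.16). Ppp1r3g moved most when a library was left out: the log2 fold change was 5.85 without fed replicate 1 and 11.38 without fed replicate 2. These relatives thus moved in opposite directions with no overlap. Gaa, the lysosomal enzyme that breaks glycogen, rose by 0.50 on the log2 scale (edgeR adjusted p 0.00511, SE 0.12).

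Of 18 secreted hepatokine genes, 4 were higher and 3 lower, against 10.8% higher and 11.1% lower of all genes. The number lower was 5 with a minimum of 1 CPM, with only the contrast's groups, with DESeq2 or with limma-voom. Angptl8, an insulin-induced secreted protein that restrains lipoprotein lipase, stood at 144, 245 and 352 CPM in the fed libraries and 6.80, 9.96 and 11.3 CPM at 24 h, a log2 fold change of -4.73 (edgeR adjusted p 2.46e-05, SE 0.48), opposite to Angptl4. Inhba, an activin subunit, fell by 2.61 on the log2 scale (edgeR adjusted p 6.42e-05, SE 0.33). Igf1 rose by 0.73 on the log2 scale (edgeR adjusted p 0.0028, SE 0.15), and Socs2, a feedback inhibitor of growth hormone signalling, by 1.77 on the log2 scale (edgeR adjusted p 0.00141, SE 0.33). Fgf21, a fasting hormone known as a PPARA target, stood at 2.25, 1.26 and 3.27 CPM in the fed libraries and 1.88, 0.588 and 3.36 CPM at 24 h and was not called (log2 fold change -0.24, SE 0.74, edgeR adjusted p 0.857). Apoa5, an apolipoprotein of triglyceride clearance, had one of the largest CPM gains, at 889.7, 929.8 and 1098 CPM in the fed libraries and 1957, 2369 and 2053 CPM at 24 h (log2 fold change 1.13, SE 0.18, edgeR adjusted p 0.000342). Genes of the naming rule outside the lists also rose. Nlrp12, an intracellular regulator of inflammation, rose by 3.42 on the log2 scale (edgeR adjusted p 8.28e-07, SE 0.26), and Gpcpd1, a phosphodiesterase of choline lipids, by 2.99 on the log2 scale (edgeR adjusted p 0.000463, SE 0.46).

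Both groups were killed at the same hour. Of 20 clock genes, 4 were higher, 2 lower and 14 not called (median 0.33), against 10.8% higher and 11.1% lower of all genes. Per2, a repressor of the core loop, stood at 72.0, 65.1 and 69.0 CPM in the fed libraries and 22.9, 23.6 and 21.5 CPM at 24 h, a log2 fold change of -1.60 (edgeR adjusted p 6.08e-06, SE 0.16). Bhlhe40 stood at 146, 223 and 249 CPM in the fed libraries and 48.1, 77.2 and 49.9 CPM at 24 h (log2 fold change -1.82, SE 0.34, edgeR adjusted p 0.00161). Per1, which also responds to glucocorticoids, rose by 0.73 on the log2 scale (edgeR adjusted p 0.00464, SE 0.17), and the repressor Nfil3 by 1.08 on the log2 scale (edgeR adjusted p 0.00175, SE 0.21). The groups were apart for Per1 and Per2, which moved in opposite directions. Per1 was not called with only the contrast's groups (log2 fold change 0.71). The activator Clock was not called with all libraries (log2 fold change 0.29, SE 0.40, edgeR adjusted p 0.667), 24 h replicate 2 lying far below the rest, and rose without it (0.73, edgeR adjusted p 0.0286).

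Markers of the neighbouring zone moved up in the pericentral libraries. Their median was also higher at 24 h in the periportal ones (581 to 742 CPM fed, 770 to 1087 CPM at 24 h). Of 20 periportal markers, 13 were higher and 0 lower in pericentral libraries (median 1.29), against 10.8% higher and 11.1% lower of all genes. Without 24 h replicate 2 the count was 12 and the median 0.85. Etnppl, a phosphoethanolamine lyase, stood at 57.7, 44.0 and 44.0 CPM in the fed libraries and 232, 383 and 280.4 CPM at 24 h, a log2 fold change of 2.62 (edgeR adjusted p 0.000156, SE 0.36). The P450 Cyp2f2 stood at 132, 152 and 254 CPM in the fed libraries and 345, 793 and 322 CPM at 24 h (log2 fold change 1.44, SE 0.33, edgeR adjusted p 0.00526; 0.89, edgeR adjusted p 0.0267 without 24 h replicate 2). Cyp2f2 was not called with only the contrast's groups (log2 fold change 1.43). Ctsc, a lysosomal protease, stood at 3.59, 2.52 and 10.2 CPM in the fed libraries and 16.8, 52.7 and 17.0 CPM at 24 h (log2 fold change 2.41, SE 0.58, edgeR adjusted p 0.00935). Ctsc was not called without 24 h replicate 2 (log2 fold change 1.63), and with only the contrast's groups (2.40), and the log2 fold change was 3.23 without fed replicate 3. Replicate 2 was the highest 24 h library for all 3, and the other 24 h libraries lay above the fed ones.

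Of 26 pericentral markers, 1 was higher, 4 were lower and 21 were not called, against 10.8% higher and 11.1% lower of all genes. The median of the markers was -0.58 with all libraries and -0.31 without 24 h replicate 2. Only 2 of the 26 markers, Cyp2e1 and Znrf3, had a log2 fold change above 0. Glul, glutamine synthetase, stood at 1375, 1069 and 552 CPM in the fed libraries and 928, 111 and 707 CPM at 24 h, and was not called (log2 fold change -0.78, SE 0.56, edgeR adjusted p 0.361; -0.29, edgeR adjusted p 0.645 without 24 h replicate 2). The glutamate carrier Slc1a2 stood at 195, 217 and 95.8 CPM in the fed libraries and 241, 8.82 and 256 CPM at 24 h, so that 24 h replicate 2 was far below the other 5 libraries. Cyp2e1, an ethanol-metabolising P450, stood at 9113, 11135 and 10557 CPM in the fed libraries and 12998, 10266 and 16062 CPM at 24 h and was not called (log2 fold change 0.35, SE 0.53, edgeR adjusted p 0.691). Cyp2c29, a listed P450, stood at 3705, 3815 and 2579 CPM in the fed libraries and 1165, 833 and 1429 CPM at 24 h. Its groups were fully apart. Rnf43 and Znrf3, paired ligases that remove Wnt receptors, moved apart. Rnf43 fell by 0.89 on the log2 scale (edgeR adjusted p 0.0163, SE 0.24), whereas Znrf3 rose by 0.73 on the log2 scale (edgeR adjusted p 0.00185, SE 0.15). Rnf43 was not called without fed replicate 2 (log2 fold change -0.82) or 24 h replicate 1 (-0.79). The Wnt target Lgr5 stood at 7.57, 8.27 and 5.76 CPM in the fed libraries and 4.57, 1.29 and 3.16 CPM at 24 h (log2 fold change -1.26, SE 0.34, edgeR adjusted p 0.0137; -0.90, edgeR adjusted p 0.0392 without 24 h replicate 2). Lgr5 was not called with only the contrast's groups (log2 fold change -1.28).

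**Figure D3:**
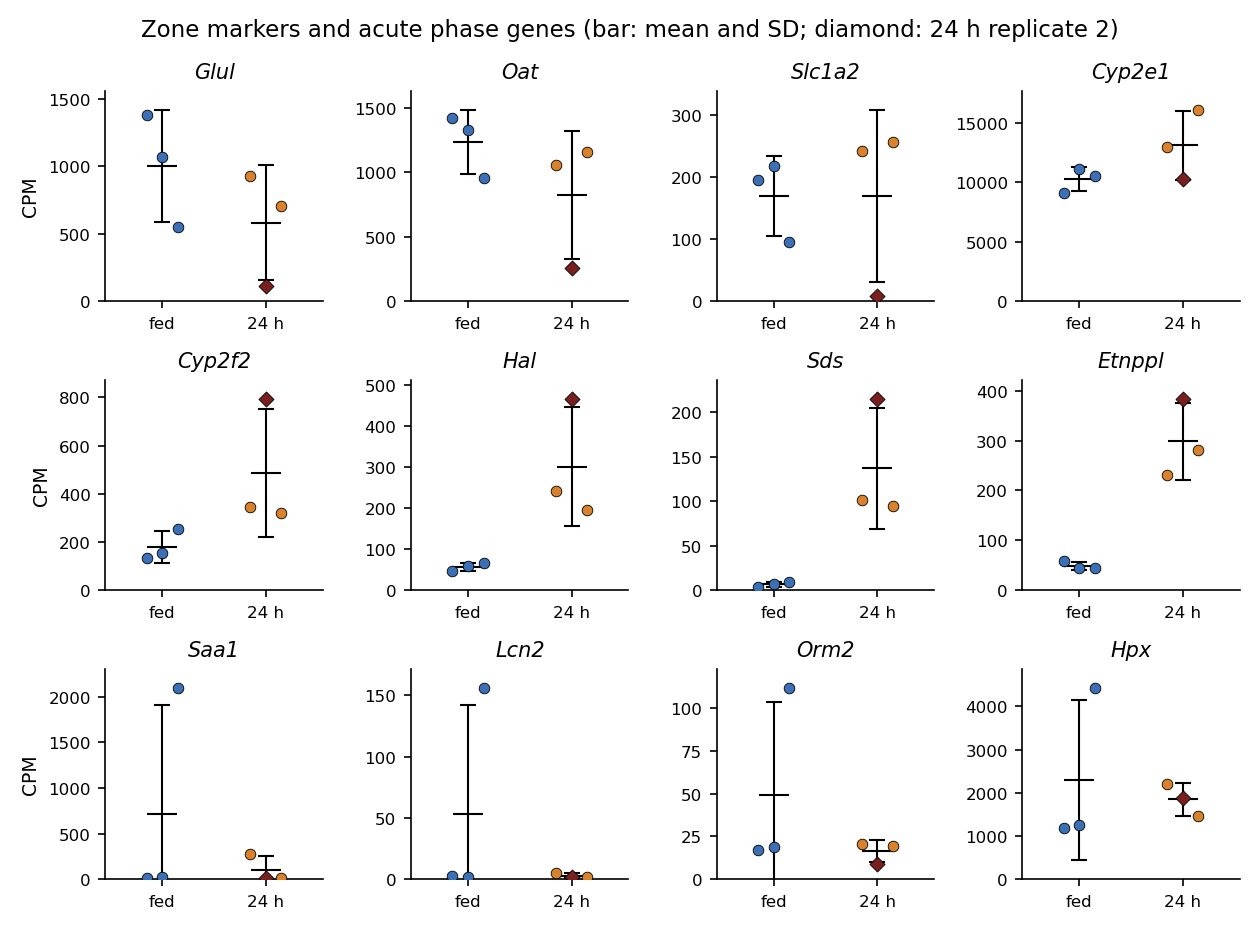
Each panel gives the CPM of 1 gene in the 3 fed (blue) and 3 24 h (orange) pericentral libraries, with 24 h replicate 2 as a diamond and a bar for the mean and SD, cut at 0 where the SD exceeds the mean. Replicate 2 at 24 h is lowest for Glul, Oat and Slc1a2 and highest for Cyp2f2, Hal, Sds and Etnppl, and fed replicate 3 is highest for Saa1, Lcn2, Orm2 and Hpx.

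Lists of secreted plasma proteins showed few calls, against 21.8% called of all genes. Of 13 acute phase genes 0 were called in edgeR, with 1 at an unadjusted p under 0.05; DESeq2 called 1 lower and limma-voom 0. Saa1, a major acute phase protein, stood at 12.9, 21.1 and 2096 CPM in the fed libraries and 272, 13.1 and 17.9 CPM at 24 h, and Lcn2, which binds bacterial iron carriers, at 2.63, 1.89 and 156 CPM in the fed libraries and 5.00, 1.47 and 1.53 CPM at 24 h. Both were far higher in fed replicate 3 than in any other library and were not called (log2 fold change -2.81, SE 2.35, edgeR adjusted p 0.443 and log2 fold change -4.30, SE 2.17, edgeR adjusted p 0.184). Of 18 genes of other plasma proteins and coagulation, 0 were called and 0 had an unadjusted p under 0.05 in edgeR, and DESeq2 and limma-voom called 0; without fed replicate 3, edgeR called 1 higher.

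The 24 h change was then set against that of periportal hepatocytes in the same fit. The zone difference, the periportal change minus the pericentral one, was called for 2 of 12477 genes (0.016%), with 962 at an unadjusted p under 0.05. DESeq2 called 38 and limma-voom 0, and with the replicate block neither gene was called (edgeR adjusted p 0.0631 for Ctnnbip1 and 0.155 for Scg2). With only the contrast's groups 2 genes were called, but not these (edgeR adjusted p 0.0732 for Ctnnbip1 and 0.0867 for Scg2). The count was 0 without any 1 of the fed pericentral libraries or without fed replicate 1 or 24 h replicate 2 or 3 of the periportal cells. It was 1 when 24 h replicate 3 of the pericentral or 24 h replicate 1 of the periportal cells was left out, and 4 when 24 h replicate 1 of the pericentral cells was. Ctnnbip1, an inhibitor of beta-catenin, stood at 1.28, 1.65 and 1.83 CPM in the fed libraries and 4.92, 10.1 and 4.55 CPM at 24 h. Its pericentral mean moved from 1.59 ± 0.281 to 6.51 ± 3.09 CPM and its periportal mean from 31.1 ± 2.65 to 24.8 ± 2.48 CPM (SD, n = 3), which gave a difference of -2.38 (edgeR adjusted p 0.0159, SE 0.32). Its highest pericentral library was 24 h replicate 2, where the median of periportal markers was also highest (394 CPM, against 206 and 238 CPM in the other 24 h libraries). Without that library the difference was -1.91 (edgeR adjusted p 0.00051). Scg2, a secretory granule protein, was at 0 in all 3 fed pericentral libraries and at 0.469, 0.699 and 0.791 CPM at 24 h, at least 17.4-fold higher than the floor of 3 counts over the fed group. For Pck1 the pericentral mean moved from 169.6 ± 101 to 4819.9 ± 26.7 CPM and the periportal mean from 1239.6 ± 847 to 5918 ± 370.5 CPM. The difference between zones, -2.57 (edgeR adjusted p 0.345, SE 0.66), was not called. It was 1.43 (edgeR adjusted p 0.345, SE 0.37) for Angptl4, -2.36 (edgeR adjusted p 0.345, SE 0.59) for Sds, 1.08 (edgeR adjusted p 0.682, SE 0.54) for Fasn and -0.15 (edgeR adjusted p 0.932, SE 0.26) for Hspa5, and none of these was called.

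After 8 h, in pericentral libraries of clock hour 21 that are set against the same fed libraries, the means (with SD, n = 3) were as follows. Pck1 averaged 2119 ± 262 CPM at 8 h and 4819.9 ± 26.7 CPM at 24 h. Fasn averaged 51.6 ± 10 and 23.0 ± 4.30 CPM, and Hspa5 458 ± 83.4 and 441 ± 25.4 CPM. Sds averaged 29.7 ± 5.99 CPM at 8 h and 137 ± 67.6 CPM at 24 h. Per2 averaged 4.44 ± 1.49 and 22.7 ± 1.07 CPM, the 8 h group having been killed at another clock hour. These values are given side by side without a test.

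Leaving out 24 h replicate 2 reduced the calls from 2726 to 2190 (17.6% of genes tested), 1089 higher and 1101 lower. Of these, 2004 were also called with all libraries and 0 changed direction. Without it 722 calls were lost, 346 higher and 376 lower, and 186 were gained, 91 higher and 95 lower. Among the genes called in both were Pck1 (4.82, edgeR adjusted p 0.00013), G6pc (2.50, edgeR adjusted p 0.000478), Cpt1a (1.36, edgeR adjusted p 7.05e-05), Fasn (-5.80, edgeR adjusted p 4.26e-05), Mvd (-3.63, edgeR adjusted p 5.35e-06) and Hspa5 (-1.88, edgeR adjusted p 7.13e-05).

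**Figure D4:**
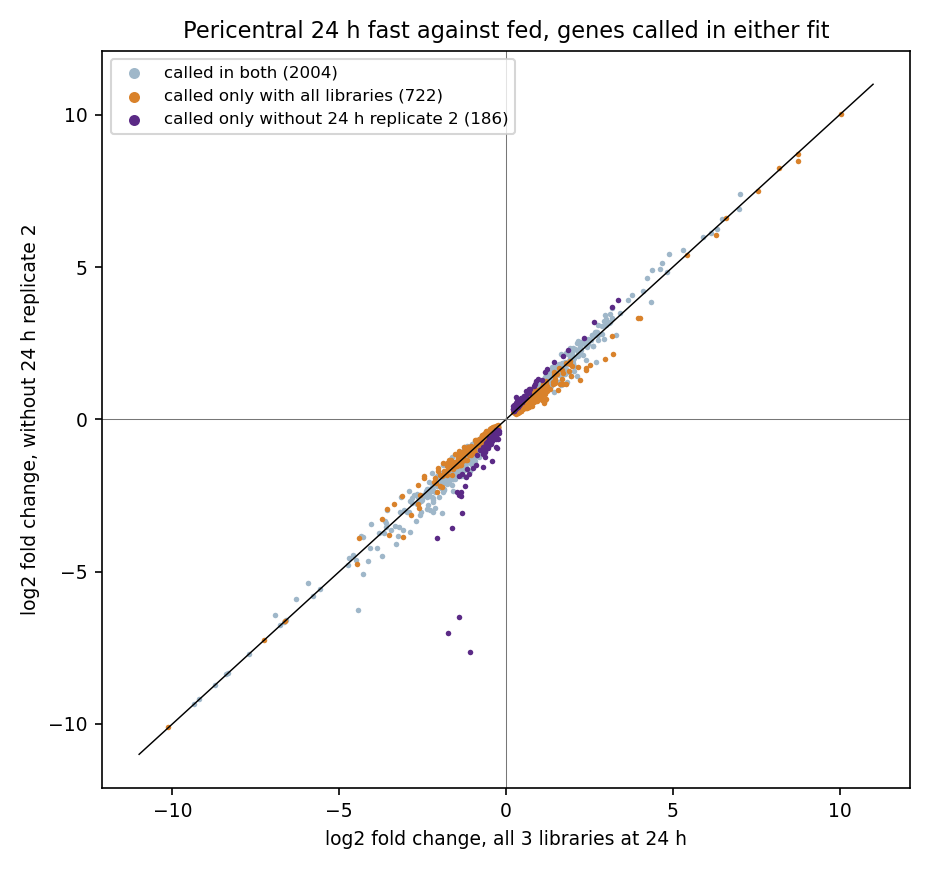
Each point is a gene called in either fit, placed by its log2 fold change with all 3 libraries at 24 h (x axis) and without 24 h replicate 2 (y axis), with the line of equality. The 2004 genes called in both lie along the line, with 722 called only with all libraries and 186 only without replicate 2.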

How the data were processed

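The values are estimated counts that the authors deposited for 18 libraries of total RNA (NEBNext Ultra kit), and every column was matched to a library by its description label. The submitters' processing notes name kallisto 0.46.0 and mm10, without roles; filters and the use of strand are not given in the sources used here. Of 28030 Ensembl identifiers, 27566 were paired with a symbol. Coordinates are from GENCODE vM21 and promoters from RefSeq, both on GRCm38, the assembly of mm10.

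The estimated counts were rounded, filtered with filterByExpr on the 6 groups (12477 genes kept) and fitted in edgeR 4.0.16 (R 4.3.3) with TMM, 6 group coefficients, no covariates and a robust quasi-likelihood F test over all 18 libraries. P-values were adjusted by Benjamini-Hochberg over all genes tested and called under 0.05. SE is the log2 fold change divided by the square root of F. CPM values are scaled by TMM, so a gain or loss in CPM is a share of reads, not a level per transcript length. With 3 libraries a group, their number limits the precision. The fit was tested on simulated data. No pair of replicates agreed within sampling noise (chi-square per gene 49.6 to 101). Same-numbered fed and 24 h libraries did not deviate together (r across genes 0.025, 0.0087 and -0.083), so the numbers were not taken to pair them.

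Lists were described by counts and medians, and some genes are on more than 1 list. Named were the 12 largest log2 fold changes and the 6 largest CPM differences in each direction among called genes without overlap and averaging 10 CPM or more in 1 group, up to 6 defining or most changed members of each list, and the genes called for the zone difference. The comparison reported here and the lists were chosen with earlier results of these data known. Alternatives were other scalings and filters, only the groups of the contrast, a replicate block, DESeq2 1.42.0, limma-voom (limma 3.58.1) and leaving out each library. Genes of near-identical families, overlapping genes and antisense genes are uncertain in level. Some genes that the naming rule chose are not reported here.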

Additional observations from a re-analysis of the deposited data

Results flagged for a closer look

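The 24 h change differed between zones by the test of the difference itself for 2 genes. For Ctnnbip1 the zone difference, periportal minus pericentral on the log2 scale, came to -2.38 (edgeR adjusted p 0.0159, SE 0.32): pericentral means went from 1.59 ± 0.281 to 6.51 ± 3.09 CPM, and periportal means from 31.1 ± 2.65 to 24.8 ± 2.48 CPM. The gene was highest in 24 h replicate 2, the pericentral library with the highest median of periportal markers (394 CPM). In pericentral cells the gene rose by 2.05 on the log2 scale (edgeR adjusted p 3.47e-05, SE 0.25). Without 24 h replicate 2 its log2 fold change was 1.58, edgeR adjusted p 1.52e-05. For Scg2 the fitted zone difference was -7.05 (edgeR adjusted p 0.0473), a value that depends on the prior count because the gene was at 0 in every fed pericentral library, and that is no bound. Its 24 h pericentral libraries stood at 0.469, 0.699 and 0.791 CPM, and the periportal means went from 0.452 ± 0.211 to 0.435 ± 0.115 CPM. The number of genes called for the difference was 0 without any 1 of the fed pericentral libraries or without fed replicate 1 or 24 h replicate 2 or 3 of the periportal cells. It was 1 when 24 h replicate 3 of the pericentral or 24 h replicate 1 of the periportal cells was left out, and 4 when 24 h replicate 1 of the pericentral cells was. With the replicate block neither Ctnnbip1 nor Scg2 was called (edgeR adjusted p 0.0631 and 0.155). With only the contrast's groups neither was called either (edgeR adjusted p 0.0732 and 0.0867). The labels do not say whether same-numbered libraries of the zones share a mouse. Deviations from the group means of same-numbered pericentral and periportal libraries correlated across genes at -0.011, 0.0067 and 0.0025 in the fed state. Differently numbered fed libraries ran from -0.063 to 0.058. At 24 h same-numbered libraries correlated at 0.12, 0.17 and 0.15, and differently numbered ones at -0.12 to -0.024. The main fit did not pair the zones, and a shared origin at 24 h cannot be told from these values. The direction held for both genes in every alternative run. For Ctnnbip1 the difference ran from -2.57 to -1.91, with adjusted p from 3.63e-08 to 0.0914, and without pericentral 24 h replicate 2 it was -1.91 (edgeR adjusted p 0.00051). For Scg2 the adjusted p ran from 0.00432 to 0.175, and it was 0.103 without pericentral 24 h replicate 2.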

How the results depend on the processing

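The number of genes called between 24 h and fed pericentral libraries (2726) lay between 2247 and 3011 under the 8 alternatives that kept all 6 libraries, and between 1919 and 2313 when 1 library was left out, the lowest without 24 h replicate 3. With the replicate block it was 2760 (1366 higher, 1394 lower) and the call of Tat was among those lost, whereas Cyp4a14 was called (log2 fold change 1.87, edgeR adjusted p 0.0377). Scaling without the 20 most abundant genes gave 966 higher and 1410 lower. The count for the zone difference (2) was 1 at a minimum of 1 CPM, 0 with the replicate block, 38 in DESeq2, 0 in limma-voom and 0 to 4 when 1 library was left out; the cause was not tested. Some log2 fold changes of genes not called changed sign. When 1 library was left out, Slc1a2 ran from -0.44 to 0.55 (0.0011 with the replicate block), Fgf21 from -0.88 to 0.20, Mdh2 from -0.10 to 0.0082 and Clock from -0.025 to 0.73 (-0.058 in limma-voom). Hpx ran from -0.62 to 0.60, Lcn2 from -5.16 to 0.25 and Saa1 from -5.53 to 2.57, each highest without fed replicate 3. All other named genes kept their direction in every alternative run. Estimated counts of 19800000 to 26400000 per library limit genes at a few CPM, such as Scg2.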

Other observations

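Of 18 tested genes of autophagy and the lysosome, 5 were higher, 0 lower and 13 not called (median 0.16), against 10.8% higher of all genes. Gabarapl1, an LC3-family protein that coats autophagosomes, stood at 218, 245 and 192 CPM in the fed libraries and 429.8, 461 and 541 CPM at 24 h, a log2 fold change of 1.13 (edgeR adjusted p 0.000183, SE 0.17). Map1lc3b of the same family rose by 0.75 on the log2 scale (edgeR adjusted p 3.81e-05, SE 0.092), and Bnip3, a receptor for mitochondria, by 0.83 on the log2 scale (edgeR adjusted p 0.00101, SE 0.15). In none of the 3 did the groups overlap.

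Of 7 iron genes, 1 was higher, 1 lower and 5 not called, and of 11 genes of heme synthesis and breakdown 0 were higher and 4 lower. Over all genes tested 10.8% were higher and 11.1% lower, so the iron counts lay near those shares. Tfrc, the transferrin receptor that takes iron in, stood at 82.9, 96.6 and 72.0 CPM in the fed libraries and 14.1, 17.6 and 20.0 CPM at 24 h, a log2 fold change of -2.28 (edgeR adjusted p 0.00022, SE 0.33). Slc40a1, the exporter ferroportin, stood at 67.6, 63.0 and 59.2 CPM in the fed libraries and 175, 124 and 175 CPM at 24 h (log2 fold change 1.32, SE 0.30, edgeR adjusted p 0.00644). The heme synthesis enzyme Uros fell by 0.82 on the log2 scale (edgeR adjusted p 0.00297, SE 0.17). In the whole list of 18 genes 1 was higher and 5 were lower, and the number lower was 3 without 24 h replicate 2 or 3 and 2 without fed replicate 3.

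Among 30 genes of cytochromes P450 and conjugation, 3 were higher and 0 lower, near the 10.8% higher of all genes, and 2 were higher without 24 h replicate 2. Por, the reductase that passes electrons to all microsomal P450s, stood at 515, 598 and 478 CPM in the fed libraries and 1760.2, 1136 and 1619 CPM at 24 h, a log2 fold change of 1.5 (edgeR adjusted p 0.000437, SE 0.25). The receptor gene Nr1i2 rose by 1.03 on the log2 scale (edgeR adjusted p 2.37e-05, SE 0.12). Of 16 ATF4 response genes, 4 were higher, 3 lower and 9 not called, against 10.8% higher and 11.1% lower of all genes. The number of ATF4 response genes lower was 1 without fed replicate 1 or without 24 h replicate 2. Among them Sesn2, a nutrient sensor, stood at 4.42, 3.31 and 4.21 CPM in the fed libraries and 20.2, 11.7 and 13.1 CPM at 24 h (log2 fold change 1.91, SE 0.21, edgeR adjusted p 1.15e-05), whereas Ddit3, the stress factor CHOP, fell by 0.88 on the log2 scale (edgeR adjusted p 0.00331, SE 0.19). Of 13 NRF2 and glutathione genes 0 were higher and 4 lower, against 10.8% and 11.1% of all genes. Without fed replicate 1 or without 24 h replicate 2 the number lower was 2. The cytosolic chaperone Hsp90aa1 stood at 540.0, 499 and 646 CPM in the fed libraries and 208, 142 and 181 CPM at 24 h, a log2 fold change of -1.67 (edgeR adjusted p 0.000367, SE 0.26). Gadd45a, a damage-response gene, fell by 2.59 on the log2 scale (edgeR adjusted p 0.00113, SE 0.46), and the anti-proliferative gene Btg1 rose by 1.47 on the log2 scale (edgeR adjusted p 6.11e-05, SE 0.19).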
